A study of Mus musculus with 48 samples.

Results

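The 2 kinds of medium spiny neuron of the mouse nucleus accumbens were compared on day 10 of abstinence from fentanyl, through the messenger RNA bound to their tagged ribosomes. D1 libraries came from Drd1Cre x Rpl22HA mice, in which Cre recombinase under the Drd1 driver switches the ribosomal protein Rpl22 to a form with a haemagglutinin tag (RiboTag). D2 libraries came from A2ACre x Rpl22HA mice, in which the driver is that of Adora2a, the adenosine receptor gene of D2 neurons. The members were chosen by name and treatment: 12 D1 libraries (6 male, 6 female) and 12 D2 libraries (6 male, 6 female), 24 of the 48 deposited, all in fentanyl abstinence. The 24 libraries of water groups were not used. Each library pooled punches from 4 mice of 1 sex, so that every p-value refers to pools of mice, and nothing in the labels says that pools were prepared on separate days. The age and strain background of the mice are not given in the sources used here. A driver marks any cell in which it was ever active, and the tag reads ribosome-bound RNA rather than total RNA, so the libraries are a model of each cell type's translated messages and not a count of its cells.

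Medium spiny neurons are the inhibitory output neurons of the striatum. Those with the D1 receptor carry Gαolf-coupled receptors that raise cAMP on dopamine, and release dynorphin and substance P. Those with the D2 receptor lower cAMP on dopamine, raise it on adenosine through the receptor encoded by Adora2a, and release enkephalin. Enkephalins act mainly at delta and mu opioid receptors and dynorphins at kappa receptors, while fentanyl is an agonist of the mu receptor.

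Libraries held 24151691 to 31779013 reads in genes in D1 and 29371068 to 36247692 in D2, and 23164 to 24998 genes had a read in each library. Reads outside exons made up 12.4 ± 1.01% of the reads of D1 libraries and 7.88 ± 0.832% of those of D2 libraries (SD, n = 12 each). The first principal component, 53.1% of the variance, separated all D1 from all D2 libraries. Along the second, 5.49%, D1 male replicate 1 and D1 female replicates 4 and 5 stood apart at 27.2, 35.1 and 25.8, and in those 3 the level of the GC-richest genes against that of the GC-poorest, each 1 of 5 equal bins, deviated by -0.235, -0.151 and -0.237 on the log2 scale, against -0.0193 to 0.0586 in the other D1 libraries. CPM below are counts scaled to 1e+06 reads in the genes tested, with library totals adjusted by TMM factors. Ddx3y, a Y-linked RNA helicase gene, had 39.7 to 69.1 CPM in male libraries and at most 0.371 CPM in female libraries, except D1 female replicate 5 at 3.49 CPM. Rpl22 itself had 29.2, 32.3 and 43.6 CPM as its lowest, median and highest value in D1 libraries, against 30.5, 34.3 and 38.4 CPM in D2 libraries, a log2 difference of -0.06 (SE 0.05, adjusted p by edgeR 0.306). Its highest value was that of D1 female replicate 5, without which the log2 difference was -0.11 (edgeR adjusted p = 0.0286), and Rpl22 was also called lower without the 3 libraries that stood apart (-0.11), by limma voom (-0.098) and when scaled to 12 pan-neuronal genes (-0.32).

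Both pull-downs carried the markers of their labelled neuron. In the order lowest, median and highest of 12 libraries, Drd1, which encodes the D1 dopamine receptor, had 398, 460 and 576 CPM in D1 libraries, against 37.5, 49.96 and 59.5 CPM in D2 libraries. Drd2, which encodes the D2 receptor, had 36.6, 58.8 and 86.3 CPM in D1 libraries, against 338, 414 and 471 CPM in D2 libraries. Neither gene overlapped between the 24 libraries. The log2 difference, D1 minus D2, was 3.26 for Drd1 (SE 0.07, edgeR adjusted p = 2.77e-23) and -2.79 for Drd2 (SE 0.12, edgeR adjusted p = 5.77e-17). The mean level of Drd1 in D2 libraries was 10.5% of that in D1 libraries, and the mean level of Drd2 in D1 libraries was 14.4% of that in D2 libraries. Drd1 (ENSMUSG00000021478) lies on the minus strand of chromosome 13 between 54051183 and 54055705 and Drd2 (ENSMUSG00000032259) on the plus strand of chromosome 9 between 49340627 and 49408177, both in GRCm38.

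Adora2a, the adenosine receptor gene whose driver marks the D2 line, was the least even of the markers among D1 libraries. It had 28.0, 118 and 183 CPM in D1 libraries, against 738, 947 and 1122 CPM in D2 libraries, with a log2 difference of -3.12 (SE 0.21, adjusted p by edgeR 6.31e-13). Its 3 lowest D1 values, 28.0, 52.5 and 52.8 CPM, belonged to D1 female replicates 5 and 4 and D1 male replicate 1, the libraries that stood apart. Adora2a (ENSMUSG00000020178) lies on chromosome 10 between 75316877 and 75334784, plus strand. Pdyn, the precursor of the dynorphins, had 537, 637 and 929 CPM in D1 libraries, against 20.5, 40.0 and 51.0 CPM in D2 libraries, a log2 difference of 4.04 (SE 0.13). Pdyn (ENSMUSG00000027400, chromosome 2, minus strand, 129686565 to 129699844) had a mean level in D2 libraries of 6.08% of that in D1.

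All 10 genes listed as D1 markers were higher in D1 libraries, with a median log2 difference of 2.46, against 28.8% of the 16383 genes tested that were higher and a median of -0.00255 over all of them. All 9 tested genes of the D2 list were lower in D1, with a median of -2.05, where 27.9% of all genes were lower. Gpr52 had too few reads to be tested. Drd1 and Adora2a are the genes of the drivers, and each list holds a neighbour of its driver gene. Sfxn1 lies near Drd1 on chromosome 13, with promoter windows from 54071595 and 54055609. Upb1 lies near Adora2a on chromosome 10, with a window from 75406661. Whether the drivers affect the levels of these genes was not tested. Isl1, a homeobox factor of striatonigral development, differed most: 38.5, 43.3 and 55.4 CPM in D1 libraries, against 1.42, 2.25 and 2.63 CPM in D2 libraries, a log2 difference of 4.40 (SE 0.09). Tac1, the substance P precursor, had 1516, 1714 and 2182 CPM in D1 libraries, against 408, 493 and 571 CPM in D2 libraries, and its mean in D2 libraries was 27.5% of that in D1. On the other side Penk, the enkephalin precursor, had 1682, 2548 and 3543 CPM in D1 libraries, against 13701, 17200 and 20092 CPM in D2 libraries, and 14.3% of its exonic bases overlap another gene. Gpr6, a constitutively active receptor that raises cAMP, had 54.8, 86.5 and 107 CPM in D1 libraries, against 408, 485 and 584 CPM in D2 libraries. The ranges of these 4 genes did not overlap, and their log2 differences were 4.40 for Isl1, 1.86 for Tac1, -2.75 for Penk and -2.51 for Gpr6. The smallest differences of the lists were those of Eya1, a transcriptional coactivator, at 0.67 (SE 0.11) with overlapping libraries, and Grik3, a kainate receptor subunit, at -0.88 (SE 0.08).

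**Figure D1:**
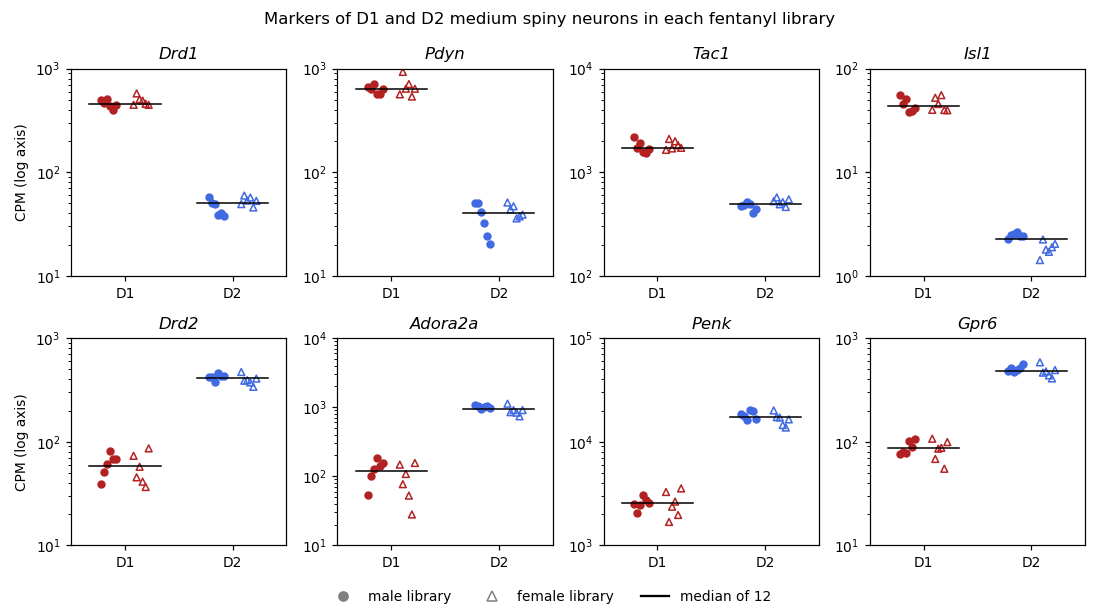
Each point is the level of a marker gene in 1 fentanyl library, in CPM on a log axis, with D1 libraries on the left and D2 libraries on the right of each panel, filled circles for males, open triangles for females and a line at the median of 12. The upper row holds D1 markers and the lower row D2 markers, none of which overlaps between D1 and D2, and Adora2a spreads from 28.0 to 183 CPM in D1 libraries.

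The promoters of 4 of these genes, a receptor and a peptide precursor of the D1 list and 2 receptors of the D2 list, are shown as examples of genes whose D1 and D2 libraries did not overlap. RefSeq promoters on GRCm38.p6 were at hand for 14 of the 20 listed genes, from 250 bases before to 50 after the start. Penk and Adora2a were among those without an entry. The gene coordinates given above are from GENCODE M21, whose Drd2 start lies downstream of the RefSeq window of Drd2. Capitals mark every GC box (GGGCGG, or CCGCCC on the other strand) and every short cAMP response motif (TGACG, or CGTCA on the other strand, which overlap in TGACGTCA). The windows are, for Drd1, chr13:54055609-54055908 on the minus strand, for Tac1, chr6:7554811-7555110 on the plus strand, for Drd2, chr9:49340153-49340452 on the plus strand, and for Gpr6, chr10:41072241-41072540 on the minus strand.
Drd1: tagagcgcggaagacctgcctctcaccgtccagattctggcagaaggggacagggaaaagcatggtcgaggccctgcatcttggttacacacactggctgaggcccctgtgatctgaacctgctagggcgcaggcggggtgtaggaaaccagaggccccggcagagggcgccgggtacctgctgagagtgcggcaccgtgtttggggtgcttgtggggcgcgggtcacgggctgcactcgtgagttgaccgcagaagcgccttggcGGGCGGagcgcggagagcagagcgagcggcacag
Tac1: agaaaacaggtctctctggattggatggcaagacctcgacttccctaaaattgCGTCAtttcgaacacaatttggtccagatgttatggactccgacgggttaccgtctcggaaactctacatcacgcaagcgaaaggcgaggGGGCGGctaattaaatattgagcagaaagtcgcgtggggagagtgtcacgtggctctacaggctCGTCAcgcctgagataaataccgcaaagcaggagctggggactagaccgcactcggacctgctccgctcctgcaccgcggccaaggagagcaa
Drd2: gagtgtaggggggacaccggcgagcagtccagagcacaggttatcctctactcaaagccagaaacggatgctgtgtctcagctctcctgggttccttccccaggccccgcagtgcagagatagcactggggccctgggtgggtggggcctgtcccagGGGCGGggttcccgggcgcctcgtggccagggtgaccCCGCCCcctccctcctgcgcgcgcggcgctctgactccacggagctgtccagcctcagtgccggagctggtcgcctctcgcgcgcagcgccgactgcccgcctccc
Gpr6: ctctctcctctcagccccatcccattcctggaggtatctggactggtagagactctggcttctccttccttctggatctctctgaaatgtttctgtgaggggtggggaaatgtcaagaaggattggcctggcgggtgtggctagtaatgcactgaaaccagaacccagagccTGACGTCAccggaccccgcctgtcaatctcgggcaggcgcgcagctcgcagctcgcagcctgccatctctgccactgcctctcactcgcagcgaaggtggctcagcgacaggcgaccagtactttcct
A GC box stood in 5 of 8 first promoters of the D1 list and 4 of 6 of the D2 list, against 35.7% of the 32851 promoters in the table. The cAMP response motif stood in 3 of 8 of the D1 list and 2 of 6 of the D2 list, against 20.8% of all promoters. A match describes letters in the window and not a bound site.

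Genes shared by both neuron types moved little and mostly downward. Of 12 such genes 1 was higher in D1, 7 were lower and 4 did not pass, with a median log2 difference of -0.17. Over all genes tested 28.8% were higher and 27.9% lower. When scaled to 12 pan-neuronal genes none of the 12 was higher and 11 were lower. At that scaling 1909 of all 16383 genes were higher and 9099 lower, with a median of -0.255. Rasd2, the striatal GTP-binding protein Rhes, had a log2 difference of -0.86 (SE 0.10), and Foxp1, a forkhead factor of striatal neurons, one of -0.46 (SE 0.05). Neither of these overlapped between D1 and D2 libraries. Ppp1r1b, which encodes the dopamine-regulated phosphatase inhibitor DARPP-32, had 1791, 2326 and 2702 CPM in D1 libraries, against 2521, 3198 and 3683 CPM in D2 libraries, with overlap and a log2 difference of -0.48 (SE 0.06). Bcl11b, the factor Ctip2 of medium spiny neurons, had a log2 difference of -0.06 (SE 0.05, adjusted p by edgeR 0.347), but was called lower at -0.31 when scaled to pan-neuronal genes.

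Markers of other cells differed more than those shared genes, in opposite directions for neurons and non-neuronal cells. The summed level of 13 GABA interneuron genes was 913, 1222 and 1781 CPM in D1 libraries, against 279, 400 and 674 CPM in D2 libraries. That of the 7 tested cholinergic interneuron genes was 12.6, 22.1 and 29.6 CPM in D1 libraries, against 3.40, 4.74 and 7.78 CPM in D2 libraries. That of 8 genes of excitatory pallial neurons was 387, 641 and 783 CPM in D1 libraries, against 105, 221 and 640 CPM in D2 libraries. The pallial sums overlapped and the interneuron sums did not. All 7 tested cholinergic genes, 12 of 13 GABA interneuron genes and all 8 pallial genes were higher in D1, while Th, the dopamine synthesis enzyme gene counted among the GABA interneuron genes, was lower (log2 difference -0.97). Sst, the somatostatin precursor, had 358, 478 and 597 CPM in D1 libraries, against 57.0, 78.1 and 113 CPM in D2 libraries, and Pvalb, the calcium-binding protein of fast-spiking interneurons, had 9.53, 21.9 and 26.8 CPM in D1 libraries, against 0.851, 1.32 and 2.60 CPM in D2 libraries.

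In D2 libraries vascular, glial and blood genes were higher instead. The summed level of the 9 tested pericyte and smooth muscle genes was 5.72, 6.83 and 9.59 CPM in D1 libraries, against 139, 240 and 365 CPM in D2 libraries. That of 10 endothelial genes was 76.9, 82.4 and 110 CPM in D1 libraries, against 303, 365 and 439 CPM in D2 libraries, and that of 5 blood genes was 7.23, 9.41 and 19.7 CPM in D1 libraries, against 258, 367 and 509 CPM in D2 libraries. Astrocyte sums were 251, 305 and 507 CPM in D1 libraries, against 473, 686 and 866 CPM in D2 libraries, with overlap, oligodendrocyte sums 300, 368 and 471 CPM against 610, 677 and 908 CPM, and microglial sums 16.4, 18.8 and 21.2 CPM against 28.5, 46.7 and 67.7 CPM. None of the tested members of these 6 lists was higher in D1, and the median log2 difference was -5.03 for pericyte, -4.71 for blood, -3.81 for endothelial, -2.23 for astrocyte, -1.30 for microglial and -1.05 for oligodendrocyte genes. The endothelial cadherin gene Cdh5 had no read in 1 D1 library and the pericyte channel subunit gene Abcc9 none in 3, while every D2 library had reads of both. Oligodendrocyte precursor sums were 10.2, 12.2 and 16.0 CPM in D1 libraries, against 22.3, 27.6 and 31.1 CPM in D2 libraries, and ependymal sums 1.29, 1.73 and 2.40 CPM against 3.09, 4.14 and 5.22 CPM. The part of these markers in the differences of other genes was not tested. More cells of a type in the pull-down cannot be told apart from more of its RNA per cell or from untagged RNA carried along. Neuron type also cannot be told apart from mouse line, and reads outside exons made up 12.4% of D1 and 7.88% of D2 reads.

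**Figure D2:**
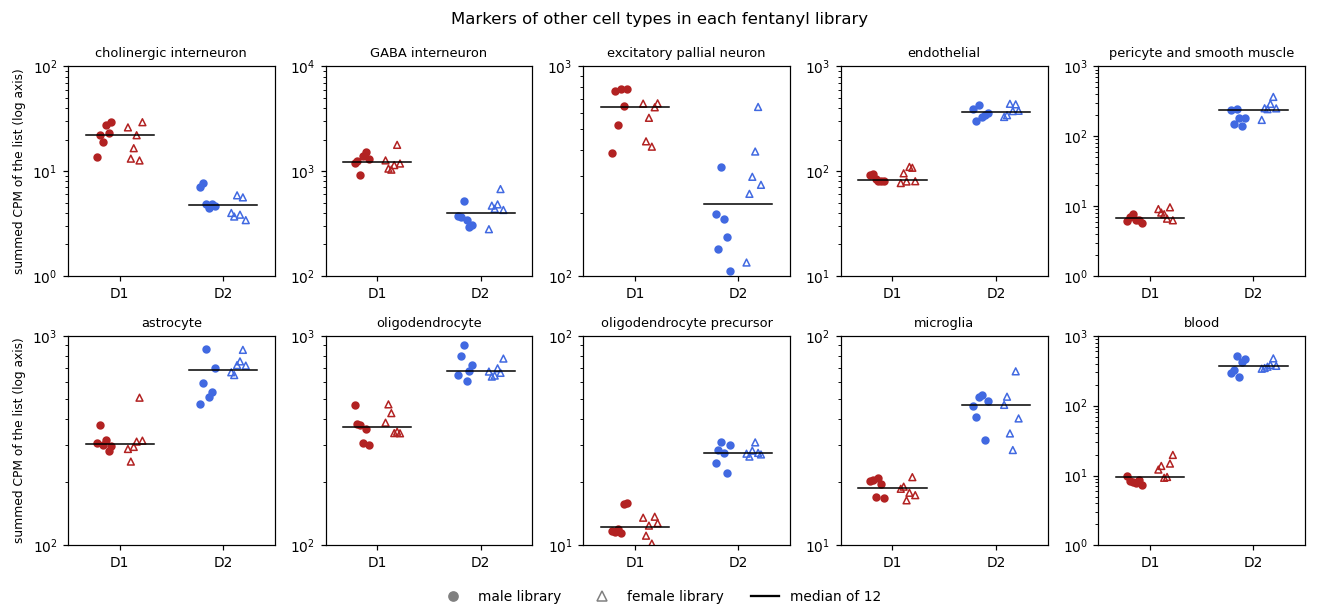
Each point is the summed level of 1 list of marker genes in 1 fentanyl library, in CPM on a log axis, D1 on the left and D2 on the right, with filled circles for males, open triangles for females and a line at the median of 12. Interneuron sums are higher in D1 libraries and vascular, glial and blood sums higher in D2 libraries, without overlap except for the pallial and astrocyte lists.

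Over all genes the 2 pull-downs differed widely but mostly by little. Of 16383 genes, 4712 were higher in D1 and 4570 lower, and the sizes of 242 higher genes (1.48%) and 671 lower genes (4.1%) passed a test for a difference beyond 2-fold. The CPM ranges of 12 against 12 libraries did not overlap for 1120 genes higher in D1 (6.84%) and 1081 lower (6.6%). The median 95% interval of a log2 difference reached 0.161 to either side. With libraries scaled to 12 pan-neuronal genes the median log2 difference of all genes shifted to -0.255 and 1909 genes were higher in D1 and 9099 lower, so the direction of a difference smaller than that shift depends on the scaling. The median difference ran with base composition, at 0.119 in the GC-poorest of 5 bins of genes and -0.107 in the GC-richest.

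The genes with the largest differences named the 2 pull-downs in different ways. Besides Isl1, Pdyn and Drd1, the 12 largest on the D1 side were Arhgap36, Nxph2, Slc35d3, Crhbp, Cox6a2, Pnoc and the interneuron genes Pvalb, Cort and Vip. Arhgap36, an inhibitor of protein kinase A, had 7.05, 13.0 and 16.6 CPM in D1 libraries, against 0.246, 0.553 and 1.12 CPM in D2 libraries, a log2 difference of 4.37 (SE 0.18). Slc35d3, an orphan sugar transporter that acts in the trafficking of the D1 receptor in mice, had 82.4, 98.7 and 135 CPM in D1 libraries, against 6.31, 8.86 and 10.5 CPM in D2 libraries, a log2 difference of 3.54 (SE 0.08). None of these 12 overlapped, as the rule that named them asked.

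On the D2 side the 12 largest held no neuronal marker. They were H2-Aa and H2-Ab1, which present antigen on MHC class II, Vtn, Kcnj8, Abcc9 and Higd1b of pericytes, the transporters Slc38a5 and Slc22a8 of the blood-brain barrier, Ctla2a, Pglyrp1 and the haemoglobin genes Hbb-bs and Hbb-bt. Vtn, the adhesion protein vitronectin, had 0.580, 1.26 and 2.03 CPM in D1 libraries, against 74.5, 133 and 210 CPM in D2 libraries, a log2 difference of -6.59 (SE 0.15). H2-Aa had 12 reads over all D1 libraries, with none in 6, against 1736 reads over the D2 libraries. Hbb-bs shares 53.2% of its 50-base stretches with another gene, Hbb-bt 58.3% and Ctla2a 25.5%. Reads placed at several loci were left out of the counts, so these genes may have lost reads.

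By level, the 8 genes on each side with the most reads among those beyond 2-fold were partly the markers already given. On the D1 side Sfxn1, a mitochondrial serine transporter, had 332, 362 and 443 CPM in D1 libraries, against 59.9, 73.4 and 89.0 CPM in D2 libraries. Its gene lies near the driver gene Drd1. Mir6236 and CT010467.1 were also higher in D1, the second at 16308 to 35398 CPM in D1 libraries, against 5944 to 9015 CPM in D2 libraries, although 73.9% of its exonic bases overlap another gene. The highest CT010467.1 values were those of D1 female replicate 5 and D1 male replicate 1, which stood apart. Which RNA the reads of Mir6236 and CT010467.1 came from was not tested, so they are not read as translated D1 genes. On the D2 side were Apoe, the lipoprotein of glia (log2 difference -3.26, SE 0.09), the glycolytic enzyme gene Aldoc (-2.68, SE 0.09) and the transcription factor gene Jun (-2.74, SE 0.08), beside Penk, Adora2a, Gpr6, Drd2 and Hbb-bs.

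**Figure D3:**
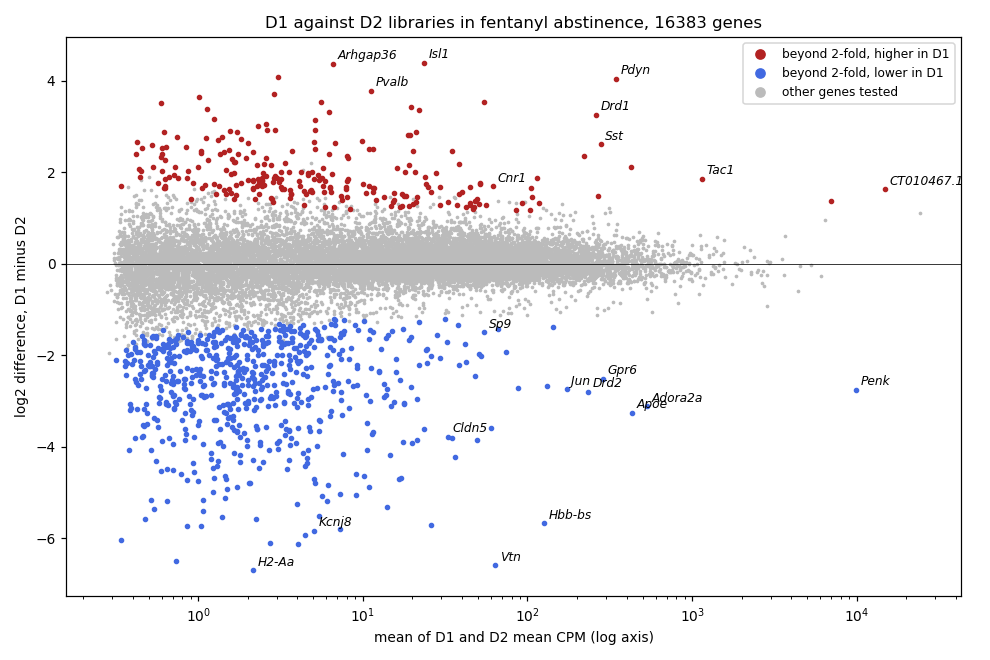
Each point is 1 of 16383 genes, with the mean CPM of the D1 and D2 means on a log axis and the log2 difference, D1 minus D2, on the other. Red points passed the test beyond 2-fold as higher in D1 (242 genes) and blue points as lower (671 genes), and the genes furthest down are vascular, blood and MHC class II genes.

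Neuropeptide precursors differed in both directions. The counts of each family below stand against 28.8% of all genes tested that were higher in D1 and 27.9% lower. Those of a family scaled to pan-neuronal genes stand against 1909 higher and 9099 lower of all 16383 genes at that scaling. Of 20 tested, 12 were higher in D1 and 4 lower (11 and 4 when scaled to pan-neuronal genes), with a median log2 difference of 1.25. Per kilobase of exon, Penk led in both pull-downs at 1571 ± 329 CPM in D1 libraries and 10586 ± 1248 CPM in D2 libraries (SD, n = 12 each). Tac1 stood at 527 ± 61.8 CPM per kilobase in D1 libraries and 145 ± 13.4 in D2 libraries, and Pdyn at 225 ± 36.0 in D1 libraries and 13.7 ± 3.49 in D2 libraries. Thus the level per length of Penk in D1 libraries lay above that of Pdyn there by more than the spread of either. The D2 markers Drd2, Adora2a and Gpr6 also kept a lower level in D1 libraries. How much of the Penk there came from D2 neurons was not tested, so the order of the 2 peptides within D1 neurons stays unknown. Pnoc, the nociceptin precursor, had 6.14, 9.77 and 11.5 CPM in D1 libraries, against 0.577, 1.05 and 1.63 CPM in D2 libraries, a log2 difference of 3.14 (SE 0.15).

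Several other peptides were higher in D1 by more than 1.5 on the log2 scale. Tac2, the neurokinin B precursor, had a log2 difference of 2.02 (SE 0.13), Crh, the corticotropin-releasing hormone precursor, one of 2.51 (SE 0.15) and Npy, the neuropeptide Y precursor, one of 1.87 (SE 0.08), all without overlap. Nts, the neurotensin precursor, had 51.7, 78.5 and 103 CPM in D1 libraries, against 57.0, 77.7 and 95.5 CPM in D2 libraries, and its difference of 0.07 (SE 0.09) did not pass. The summed markers of GABA interneurons, which include Sst, Npy, Vip, Cck and Cort, were also higher in D1, and their part in these peptide differences was not tested. Besides Penk, the lower members were Cartpt, Pomc and Trh at -0.17 to -0.65, and Cartpt, the CART peptide precursor, overlapped widely and lost its call (edgeR adjusted p = 0.0393) without any 1 of 13 libraries.

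The 4 opioid and nociceptin receptors all differed, 3 higher in D1 and 1 lower, also when scaled to pan-neuronal genes. Oprm1, the mu receptor through which fentanyl acts, had 3.02, 4.59 and 5.99 CPM in D1 libraries, against 1.36, 2.08 and 3.21 CPM in D2 libraries, a log2 difference of 1.09 (SE 0.14, adjusted p by edgeR 9.73e-08). Oprk1, the kappa receptor for dynorphin, had 56.8, 68.8 and 87.2 CPM in D1 libraries, against 35.1, 38.4 and 47.9 CPM in D2 libraries, a log2 difference of 0.82 (SE 0.07, adjusted p by edgeR 2.74e-11). Of the 4 only Oprk1 had ranges that did not overlap. Oprl1, the nociceptin receptor, was higher in D1 by 0.53 (SE 0.05), and Oprd1, the delta receptor, had 4.73, 6.93 and 11.8 CPM in D1 libraries, against 7.58, 11.4 and 14.2 CPM in D2 libraries, a log2 difference of -0.63 (SE 0.12). Per kilobase of exon Oprl1 (9.75 ± 0.675 CPM in D1 libraries, 6.74 ± 0.682 in D2 libraries) and Oprk1 (7.57 ± 0.960 in D1, 4.30 ± 0.449 in D2) stood above Oprd1 (1.82 ± 0.518 in D1, 2.81 ± 0.426 in D2), and Oprm1 was lowest at 0.582 ± 0.122 in D1 libraries and 0.273 ± 0.0733 in D2 libraries (SD, n = 12 each).

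Besides Drd1 and Drd2, 2 of 3 dopamine receptors and 4 of 5 muscarinic receptors were higher in D1, and none was lower. Drd3, the D3 receptor, had 2.57, 3.54 and 6.80 CPM in D1 libraries, against 0.602, 1.17 and 1.64 CPM in D2 libraries, a log2 difference of 1.70 (SE 0.17) without overlap. Drd5 was higher by 1.34 (SE 0.27), but 48.6% of its exonic bases overlap another gene, and Drd4 did not pass (-0.01, SE 0.26). Chrm4, the inhibitory M4 muscarinic receptor that counters D1 signalling, had 7.05, 19.9 and 23.6 CPM in D1 libraries, against 2.17, 3.33 and 4.23 CPM in D2 libraries, a log2 difference of 2.51 (SE 0.16). Chrm1, the excitatory M1 receptor, did not pass at -0.18 (SE 0.09, edgeR adjusted p = 0.084), although it was called lower at -0.42 when scaled to pan-neuronal genes, at -0.23 with upper-quartile scaling (edgeR adjusted p = 0.0156), at -0.21 with a mean of at least 10 CPM (edgeR adjusted p = 0.036) and at -0.21 without D1 female replicate 3 (edgeR adjusted p = 0.0441).

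Cnr1, the CB1 cannabinoid receptor of presynaptic terminals, stood out among the remaining receptors for small ligands. It had 74.5, 87.6 and 123 CPM in D1 libraries, against 18.8, 30.5 and 41.8 CPM in D2 libraries, a log2 difference of 1.70 (SE 0.11) without overlap. Among 11 serotonin receptors 5 were higher in D1 and 4 lower (5 and 5 when scaled to pan-neuronal genes), led by Htr1a at 1.94 (SE 0.20), Htr1f at 1.29 (SE 0.10) and Htr7 at -1.03 (SE 0.12), none of which overlapped. The shares over all genes tested were 28.8% higher and 27.9% lower. Htr1a and Htr1f couple to inhibitory G proteins and Htr7 to the stimulatory one. Adora1, the inhibitory adenosine A1 receptor, had a log2 difference of -0.06 (SE 0.05, adjusted p by edgeR 0.351), but was called lower at -0.11 with upper-quartile scaling (adjusted p by edgeR 0.0492) and at -0.31 when scaled to pan-neuronal genes. Gabbr2, a subunit of the GABA-B receptor, was higher by 0.91 (SE 0.07) without overlap.

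Receptors for peptides were mostly higher in D1, where 28.8% of all genes tested were higher and 27.9% lower. Of 25 tested, 17 were higher and 2 lower, with a median log2 difference of 0.56, and 10 and 4 when scaled to pan-neuronal genes. Oxtr, the oxytocin receptor, had 7.24, 13.1 and 18.8 CPM in D1 libraries, against 1.27, 2.50 and 4.28 CPM in D2 libraries, a log2 difference of 2.35 (SE 0.17). Sstr4, a somatostatin receptor, had 3.36, 4.76 and 5.39 CPM in D1 libraries, against 0.325, 0.530 and 1.17 CPM in D2 libraries, a log2 difference of 2.92 (SE 0.17). Neither overlapped. Npy1r, a neuropeptide Y receptor, was higher by 1.26 (SE 0.08) without overlap and Tacr1, the substance P receptor, by 0.61 (SE 0.10) with overlap.

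The 2 peptide receptors lower in D1 were Ntsr2 and Crhr1. Ntsr2, a neurotensin receptor also found in astrocytes, had 7.23, 10.4 and 11.9 CPM in D1 libraries, against 29.3, 42.8 and 49.4 CPM in D2 libraries, a log2 difference of -2.01 (SE 0.08), where the summed astrocyte markers were also lower in D1. Crhr1, the main receptor of corticotropin-releasing hormone, had 3.46, 4.66 and 9.21 CPM in D1 libraries, against 8.05, 9.21 and 11.4 CPM in D2 libraries, a log2 difference of -0.88 (SE 0.13). Among 12 orphan receptors 5 were higher in D1 and 4 lower (4 and 5 when scaled to pan-neuronal genes). By comparison 28.8% of all genes tested were higher and 27.9% lower at the scaling used. Scaled to pan-neuronal genes, 1909 of all 16383 genes were higher and 9099 lower. Gpr26 had a log2 difference of 1.29 (SE 0.06), Gpr101 one of 1.74 (SE 0.16) and Gpr139 one of 2.77 (SE 0.32), all without overlap.

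Downstream of dopamine as many genes were higher as lower at the scaling used, where 28.8% of all genes tested were higher and 27.9% lower. Of 25 genes of dopamine and cAMP signalling 9 were higher in D1 and 9 lower with a median of 0.06, and 3 and 14 when scaled to pan-neuronal genes. At that scaling 1909 of all 16383 genes were higher and 9099 lower. Gnai1, an inhibitory G protein subunit, had 302, 321 and 363 CPM in D1 libraries, against 158, 173 and 201 CPM in D2 libraries, a log2 difference of 0.89 (SE 0.04). Arpp19, an inhibitor of protein phosphatase 2A, had 528, 590 and 683 CPM in D1 libraries, against 884, 1034 and 1257 CPM in D2 libraries, a log2 difference of -0.86 (SE 0.06). Neither overlapped. Adcy5, the main adenylyl cyclase of the striatum, was lower in D1, with overlap and a log2 difference of -0.17 (SE 0.05, adjusted p by edgeR 0.00885).

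Of 14 RGS proteins, which speed the turning off of G proteins, 4 were higher in D1 and 8 lower, with a median log2 difference of -0.28 (2 and 10 when scaled to pan-neuronal genes). The 4 higher lay near the share of 28.8% over all genes tested, of which 27.9% were lower. With pan-neuronal scaling, 1909 of all 16383 genes were higher and 9099 lower. Rgs14 had 99.8, 141 and 170 CPM in D1 libraries, against 202, 227 and 270 CPM in D2 libraries, a log2 difference of -0.70 (SE 0.06), and Rgs12 one of 0.69 (SE 0.06). Rgs9, a striatal form that acts on D2 and opioid receptors, was lower in D1, with overlap and a log2 difference of -0.30 (SE 0.06).

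Among 32 transcription factors of medium spiny neurons 15 were higher in D1 and 6 lower, with a median of 0.11, but 7 and 13 when scaled to pan-neuronal genes. At the scaling used, 28.8% of all genes tested were higher and 27.9% lower. With scaling to pan-neuronal genes, 1909 of all 16383 genes were higher and 9099 lower. After Isl1 the largest were Zfp521, Ebf1 and Nkx2-1 on the D1 side and Sp9 on the D2 side. Zfp521, a zinc finger partner of Ebf1, had 7.66, 10.4 and 12.8 CPM in D1 libraries, against 1.61, 1.98 and 2.36 CPM in D2 libraries. Ebf1, a helix-loop-helix factor of striatonigral neurons, had 9.07, 11.9 and 16.7 CPM in D1 libraries, against 2.37, 3.41 and 4.52 CPM in D2 libraries. Sp9, a zinc finger factor needed for striatopallidal neurons in mice, had 15.3, 27.6 and 47.4 CPM in D1 libraries, against 60.1, 81.0 and 91.2 CPM in D2 libraries. The log2 differences were 2.40, 1.82 and -1.50 in that order, and none of these genes overlapped. Nkx2-1, a factor of cholinergic and other interneurons, had at most 1.48 CPM in any library and differed by 2.53 (SE 0.31).

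**Figure D4:**
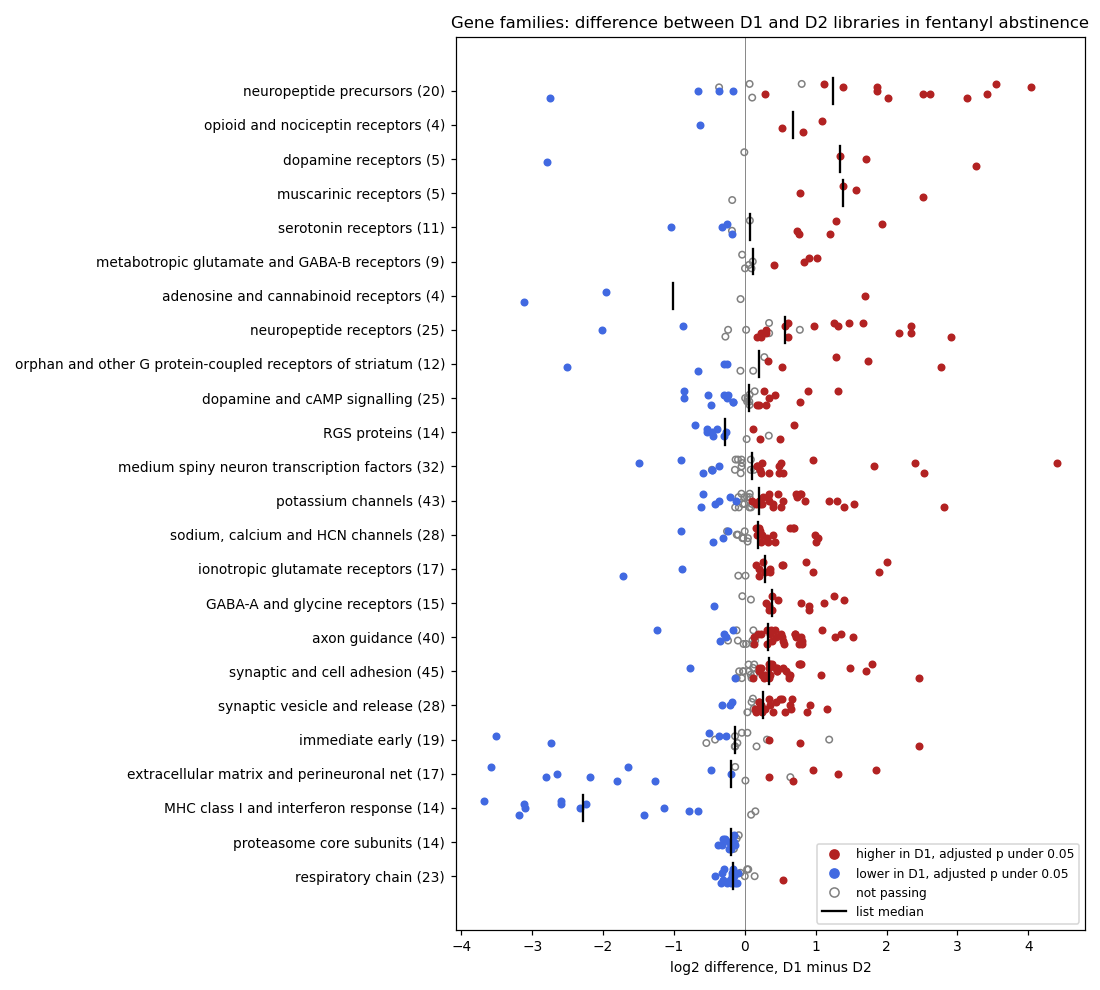
Each point is the log2 difference, D1 minus D2, of 1 gene of a family, with the number tested in brackets, red for higher in D1, blue for lower and open grey for genes that did not pass, and a black line at the family median. The medians of muscarinic receptors (1.39), dopamine receptors (1.34) and neuropeptide precursors (1.25) lie furthest right. That of MHC and interferon genes lies furthest left at -2.28. Potassium channel genes and transcription factors have medians of 0.21 and 0.11. Scaled to pan-neuronal genes, both families hold more lower than higher genes, as do all genes tested (1909 higher and 9099 lower).

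Channel genes leaned to D1 at the scaling used, where 28.8% of all genes tested were higher and 27.9% lower. Of 43 potassium channel genes 24 were higher in D1 and 6 lower with a median of 0.21, and 12 and 17 when scaled to pan-neuronal genes. Of 28 sodium, calcium and HCN channel genes 16 were higher and 4 lower with a median of 0.19, and 8 and 10 when scaled to pan-neuronal genes. Of all 16383 genes, 1909 were higher and 9099 lower when so scaled. Kcnc2, the Kv3.2 channel of fast-spiking interneurons, had 19.4, 33.2 and 45.7 CPM in D1 libraries, against 2.95, 4.71 and 6.19 CPM in D2 libraries, a log2 difference of 2.81 (SE 0.14), beside the higher Pvalb of the same libraries. Cacna2d2, an auxiliary calcium channel subunit, went the other way with 18.8, 31.6 and 39.4 CPM in D1 libraries, against 51.3, 55.9 and 61.0 CPM in D2 libraries, a log2 difference of -0.91 (SE 0.09). Neither of the genes named here overlapped.

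Most receptor subunits for glutamate and GABA were higher in D1 at the scaling used, against 28.8% of all genes tested. Of 17 ionotropic glutamate receptor subunits 13 were higher in D1 and 2 lower, with a median of 0.28, and 6 and 5 when scaled to pan-neuronal genes. Of 15 GABA-A and glycine receptor subunits 12 were higher and 1 lower, with a median of 0.39, and 9 and 3 when so scaled. At that scaling 1909 of all 16383 genes were higher and 9099 lower. Grin3a, an NMDA receptor subunit that lowers calcium entry, had 21.02, 37.5 and 52.0 CPM in D1 libraries, against 5.41, 10.4 and 14.5 CPM in D2 libraries, a log2 difference of 1.90 (SE 0.14). Grik1, a kainate receptor subunit of interneurons, differed by 2.01 (SE 0.16), and Grin2c, an NMDA subunit also found in astrocytes, by -1.72 (SE 0.17). Gabrd, the delta subunit of extrasynaptic GABA-A receptors, was the only lower GABA-A or glycine member, with 154, 183 and 210 CPM in D1 libraries, against 227, 250 and 287 CPM in D2 libraries, a log2 difference of -0.44 (SE 0.05). Glra2, a glycine receptor subunit, had 16.7, 23.1 and 26.0 CPM in D1 libraries, against 6.29, 7.92 and 13.1 CPM in D2 libraries, a log2 difference of 1.40 (SE 0.10). None of the 5 genes named here overlapped.

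Guidance and adhesion genes followed the same lean, against 28.8% of all genes tested that were higher and 27.9% that were lower. Of 40 axon guidance genes 26 were higher in D1 and 5 lower with a median of 0.33, and 14 and 11 when scaled to pan-neuronal genes. Sema5a, a semaphorin, differed by 1.52 (SE 0.11), Nrp2, a semaphorin receptor, by 1.35 (SE 0.11), Plxna1 by 1.28 (SE 0.08) and Plxnb1, another plexin, by -1.24 (SE 0.10), all without overlap. Of 45 synaptic and cell adhesion genes 31 were higher and 2 lower with a median of 0.34, and 17 and 11 when so scaled. All 16383 genes then held 1909 higher and 9099 lower. Lingo2, a leucine-rich repeat protein of neurons, had 29.3, 34.4 and 37.7 CPM in D1 libraries, against 3.95, 6.29 and 7.89 CPM in D2 libraries, a log2 difference of 2.46 (SE 0.08).

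Genes of vesicles and release were higher in 21 of 28 and lower in 3, with a median of 0.26, and 10 and 5 when scaled to pan-neuronal genes. Syt1, the calcium sensor of fast release, had 1174, 1354 and 1720.4 CPM in D1 libraries, against 761, 877 and 1002 CPM in D2 libraries, a log2 difference of 0.64 (SE 0.05). Vamp1, a vesicle SNARE, differed by 0.88 (SE 0.08). Neither overlapped, and Syt1 is itself among the 12 pan-neuronal genes, whose summed level was 10469, 11135 and 11690 CPM in D1 libraries, against 8791, 9223 and 10501 CPM in D2 libraries.

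Immediate early genes, which respond to activity and to handling of tissue, were called no more often than all genes tested, of which 28.8% were higher and 27.9% lower. Of 19 tested 3 were higher in D1, 5 lower and 11 did not pass, with a median of -0.14, and 4 and 3 passed without the 3 D1 libraries that stood apart. When scaled to pan-neuronal genes 2 were higher and 11 lower, where 1909 of all 16383 genes were higher and 9099 lower. Jun had 33.3, 45.3 and 61.5 CPM in D1 libraries, against 263, 307 and 358 CPM in D2 libraries. Nr4a2, a nuclear receptor also found in pallial neurons, had 33.6, 58.4 and 77.7 CPM in D1 libraries, against 3.95, 9.31 and 29.0 CPM in D2 libraries, a log2 difference of 2.46 (SE 0.20). Klf4, a factor also of endothelial cells, had 0, 0.231 and 0.499 CPM in D1 libraries, against 2.11, 2.73 and 4.00 CPM in D2 libraries. Each of these 3 was without overlap, and the summed pallial markers were higher and the summed endothelial markers lower in D1.

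Genes of the extracellular matrix, of antigen presentation, of the proteasome and of the respiratory chain were mostly lower in D1. Over all genes tested 27.9% were lower and 28.8% higher, and the share of matrix genes that were higher lay near the latter. Scaled to pan-neuronal genes, 9099 of all 16383 genes were lower and 1909 higher. Of 17 matrix genes 5 were higher and 9 lower (4 and 11 when scaled to pan-neuronal genes) with a median of -0.19, among them Sparc, a matrix glycoprotein of vessels and glia, with 6.85, 9.22 and 11.1 CPM in D1 libraries, against 83.9, 109 and 139 CPM in D2 libraries. Of 14 MHC class I and interferon genes none was higher and 12 were lower with a median of -2.28. H2-K1, an MHC class I chain, had 2.28, 3.00 and 4.10 CPM in D1 libraries, against 20.3, 26.3 and 32.6 CPM in D2 libraries, a log2 difference of -3.11 (SE 0.10). Of 14 proteasome core subunits 11 were lower and none higher, with a median of -0.19, and 14 were lower when scaled to pan-neuronal genes. Psmb6, a catalytic subunit, had 353, 374 and 439 CPM in D1 libraries, against 442, 497 and 555 CPM in D2 libraries. Of 23 respiratory chain genes 17 were lower and 1, Atp5a1, higher, with a median of -0.16. When scaled to pan-neuronal genes 21 were lower and none higher, and Atp5a1 lost its call at 0.295 (edgeR adjusted p = 0.0988). Sdhb, the iron-sulphur subunit of complex II, had a log2 difference of -0.33 (SE 0.04).

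The difference between D1 and D2 was measured in each sex. In males 4050 genes (24.7%) were higher in D1 and 3861 (23.6%) lower, and in females 3267 (19.9%) were higher and 2972 (18.1%) lower. Of the 9282 genes called over both sexes, 9253 had the same sign in males and females, and of 5251 called in each sex apart, 5248 had. The 9282 genes were called on these same libraries, so a shared sign was favoured by that choice. The log2 difference was 3.32 in males and 3.20 in females for Drd1, 4.10 and 3.98 for Pdyn, -2.79 and -2.80 for Drd2, -3.00 and -3.24 for Adora2a, and 1.09 in both for Oprm1.

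The difference between the sexes in these values was not called for any gene by edgeR's quasi-likelihood test, while 1691 genes (10.3%) had an unadjusted p under 0.05. DESeq2 called 4 genes and limma voom with quality weights 19. The 4 of DESeq2, named after their values were seen, were Numb, Shisal1 and Ptger2 with a larger difference in males and Fau with a smaller one. Numb, an adaptor of Notch signalling and endocytosis, had a mean of 23.5 ± 0.985 CPM in D1 males and 17.8 ± 0.655 CPM in D2 males, and of 21.3 ± 1.5 CPM in D1 females and 21.3 ± 1.17 CPM in D2 females (SD, n = 6 each). The log2 difference of Numb was 0.40 in males and 0.00 in females, a gap of 0.40 (SE 0.08, edgeR adjusted p = 0.225). Without D1 female replicate 5 edgeR called Numb alone, at an adjusted p of 0.0462, and without the 3 D1 libraries that stood apart it did so at 0.0479.

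None of the other genes with the smallest p for a gap between the sexes passed edgeR's adjustment, while limma voom called, besides Numb, Shisal1 (adjusted p = 0.0299), Sipa1l2, Ccdc115 and Znhit1 (adjusted p = 0.0462 for each). Fau, a ubiquitin-like ribosomal fusion protein, had a log2 difference of -0.31 in males and 0.32 in females, and shares 30.0% of its stretches with another gene. Shisal1 had 1.38 in males and 0.37 in females (gap 1.01, SE 0.21, edgeR adjusted p = 0.269), Gng4, a G protein gamma subunit, 1.78 and 0.28 (gap 1.499, SE 0.34, edgeR adjusted p = 0.272), and Sipa1l2 1.29 and 0.46. Gng4 had 138 CPM in D1 male replicate 5 against at most 56.0 CPM in any other D1 library. Ankrd29 had 0.92 in males and 0.04 in females, and Ccdc85b, Dnajc17, Ccdc115 and Znhit1 had gaps of -0.31, -0.40, -0.29 and -0.24.

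**Figure D5:**
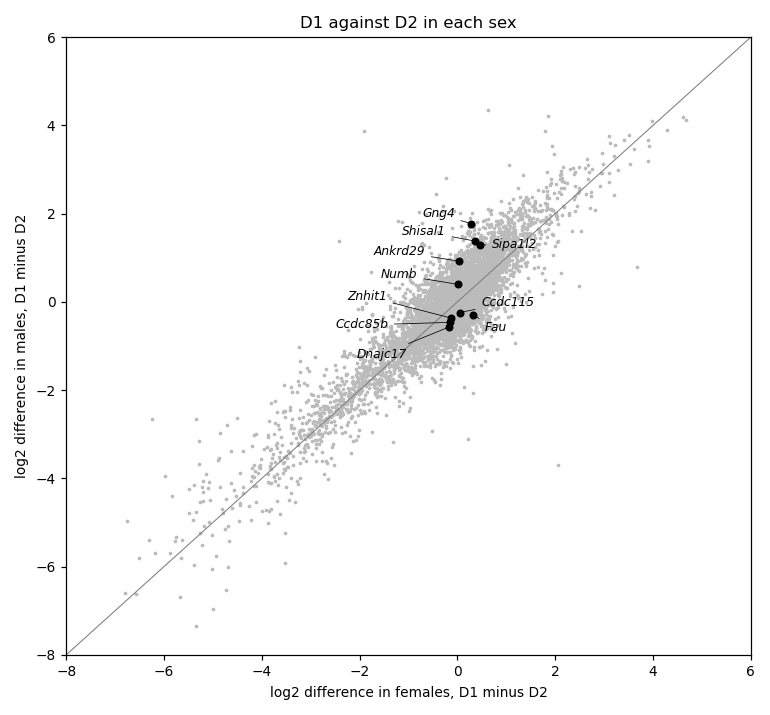
Each grey point is 1 of 16383 genes, with its log2 difference, D1 minus D2, in females on the horizontal and in males on the vertical axis, and a line where both are equal. The 10 black points are the genes with the smallest p for a gap between the sexes, 5 to each side, none of which passed edgeR's adjustment.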

How the data were processed

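Per the labels' protocols, tissue of 4 mice a library (4 punches of 14 gauge each) was taken on day 10 of abstinence and polyribosomes were collected by their tag. Smart-Seq v4, used with 10 ng of RNA, is unstranded and without molecular identifiers. The authors used, per the submitters' processing notes, TopHat2 2.0.8, HTSeq and the build GRCm38; the HTSeq version, strand setting and annotation are not given in the sources used here. The deposited values are raw, whole-number exon read counts of 54838 Ensembl genes, followed by 5 summary lines. These lines held 22.6% of reads (17.7 to 29.5%), among them reads outside exons and reads placed at several loci, and were left out of totals, so genes with near copies lose reads. Without strand, reads of overlapping genes cannot be told apart.

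Symbols, coordinates and transcripts came from GENCODE M21, which gave 54809 genes a symbol and 29 none. Libraries were grouped by the labels, and the 24 water libraries were not used. The animal grouping in the file names is sex, which was a term in each fit. CPM is a gene's reads scaled to 1e+06 reads in the 16383 genes tested, with library totals adjusted by TMM factors of 0.9561 to 1.034. Reads in genes totalled 24151691 to 36247692 a library. Counting error was not compared with the spread between libraries, and it weighs more for genes of few reads. Tests used edgeR 4.0.16 in R 4.3.3 on the counts, scaled by TMM. The filterByExpr function with a minimum count of 10 and a minimum total of 15 left 16383 genes. Quasi-likelihood p-values were two-sided and adjusted over all genes by Benjamini-Hochberg, with a threshold of 0.05. A difference beyond 2-fold was tested with glmTreat, and males, females and the gap between them with an interaction term. Intervals are 95% t intervals. Data were simulated with 50 genes changed by each fold among 16209, all changed genes having a mean of at least 2 CPM. There edgeR found 70% of changes of 1.25-fold between D1 and D2, 96% of those of 1.5-fold and 98% of those of 2-fold, and 14 of 293 calls were false. Far fewer genes were changed there than the 9282 called in the data, so these rates may differ in the data and for genes of lower level. Of gaps between the sexes it found 12% of those of 1.25-fold, 64% of those of 1.5-fold, 84% of those of 2-fold and 100% of those of 4-fold; 6 of 136 calls were false.

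The members, the 40 gene lists, the tests and the naming rule were chosen with earlier results of these data known. The rule took genes with a mean of at least 2 CPM and a proper symbol, and named the 12 largest differences each way without overlap, the 8 highest in level each way beyond 2-fold, all D1 and D2 markers, members of the other lists, and 5 each way for the gap between the sexes; some of these are not reported here. Lists are described by counts and medians and were given no test of their own. Promoter sequences are those of RefSeq on GRCm38.p6. Replicate numbers did not pair the libraries, and none of 60 pairs of replicates was a copy, with a chi-square per gene of 8.51 to 87.0. The alternatives were DESeq2 1.42.0, limma voom 3.58.1 with quality weights, RLE and upper-quartile scaling, scaling to 12 pan-neuronal genes, no filter, a mean of at least 10 CPM, a block for replicate number and leaving out each library. A fit without the 3 D1 libraries that stood apart was chosen after seeing the data.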

Additional observations from a re-analysis of the deposited data

Results flagged for a closer look

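Over the 118 genes named, 472 sets of 6 libraries of 1 cell type and sex were searched for a library whose gap to the nearest other exceeds Dixon's 95% critical value, and 40 (8.5%) held one, where chance gives about 1 in 20. No explanation of these values was tested.

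The most in 1 library, 7, belonged to D1 female replicate 5. It was the highest of its group for Vip at 50.03 CPM (others 24.4 to 33.4), Cck at 766 CPM (262 to 417), Cnr1 at 123 CPM (74.5 to 88.1), Numb at 24.3 CPM (20.5 to 21.1), Rpl22 at 43.6 CPM (30.9 to 34.4), CT010467.1 at 35398 CPM (16308 to 21648) and the Y-linked Ddx3y at 3.49 CPM (0.106 to 0.314). D1 male replicate 1, another of the 3 libraries that stood apart, was the lowest for Chrm4 at 11.7 CPM (19.5 to 23.1), Chrm1 at 110 CPM (160 to 181) and Mir6236 at 500.3 CPM (657 to 711), and the highest for CT010467.1 at 31194 CPM (19919 to 22786) and Sdhb at 467 CPM (411 to 430). D1 female replicate 4, the last of the 3, was the highest for Sdhb at 493 CPM (421 to 443).

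In the other D1 libraries, female replicate 2 was the highest for Slc35d3 at 135 CPM, Higd1b at 0.443 CPM and Drd3 at 6.80 CPM, and female replicate 1 for Gng4 at 54.3 CPM. Male replicate 5 was the highest for Gng4 at 138 CPM (34.3 to 56.0) and Trh at 13.3 CPM and the lowest for Dnajc17 at 12.8 CPM. Male replicate 3 was the lowest for Pvalb at 9.53 CPM (21.7 to 26.6), and male replicate 4 the highest for Kcnj8 at 0.589 CPM.

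Among D2 libraries male replicate 3 was the lowest for Jun at 263 CPM, Rgs9 at 397 CPM and Rasd2 at 384 CPM, and the highest for Apoe at 1076 CPM (586 to 770). Female replicate 1 was the highest for Rgs9 at 553 CPM (377 to 407), Rasd2 at 630 CPM (391 to 434) and Gabrd at 287 CPM. Male replicate 1 was the highest for Sstr4 at 0.894 CPM, Gpr139 at 1.18 CPM and Atp5a1 at 15.2 CPM. Female replicate 5 was the highest for Shisal1 at 22.3 CPM and Oprl1 at 32.1 CPM and the lowest for Foxp1 at 529 CPM. Female replicate 2 was the highest for CT010467.1 at 9015 CPM and Sst at 92.9 CPM. Male replicate 4 was the highest for Mir6236 at 218 CPM, while male replicate 6 was the lowest for Fau at 149 CPM and female replicate 6 for Drd4 at 0.243 CPM.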

How the results depend on the processing

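Scaled to pan-neuronal genes, 1909 genes were higher in D1 and 9099 lower over both sexes, 1490 and 8598 in males and 1474 and 6458 in females, so that 17.3% of calls were higher in D1, against 50.8% at the scaling used, while upper-quartile scaling gave 41.8%. With a mean of at least 10 CPM, which left 9158 genes, 2951 were higher and 3000 lower, 61 and 78 beyond 2-fold, and 2585 higher in males and 2121 higher in females. For the gap between the sexes DESeq2 called 3 genes larger and 1 smaller in males, limma voom 10 and 9, and the fit without the 3 D1 libraries 1 larger, while the other alternatives and all leave-one-out fits but that without D1 female replicate 5 called 0. Leaving out each library in turn gave 4537 to 4752 genes higher and 4416 to 4691 lower over both sexes, 231 to 276 and 651 to 710 beyond 2-fold, 3752 to 4132 and 3608 to 4141 in males, 2997 to 3343 and 2706 to 3197 in females, and 0 to 1 larger and 0 to 0 smaller gaps in males. Among 118 genes named, 2 changed sign with a call in the main fit or the alternative. Both did so when scaled to pan-neuronal genes, Numb to -0.053 and Fau to -0.25 over both sexes. Sign changes without a call in either fit were not counted. The cause was not tested beyond the shift of -0.255 in the median of all genes.

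With replicate number as a block 4452 genes were higher in D1 and 4400 lower, 243 and 672 beyond 2-fold, 3764 and 3634 in males, 3007 and 2783 in females, and 0 for the gap between the sexes. Same-numbered D1 and D2 libraries correlated at -0.118 to 0.0681 in their deviations, and 1 of 12 correlated best with its own number, so the numbers do not pair the libraries. The block changed no call of a named gene. Genes under about 2 CPM rest on few reads, and a gap between the sexes under 1.5-fold was mostly not detectable with 6 pools a group.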
